A study of Mus musculus with 12 samples.

Results

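The genes described here encode the proteins that make microRNAs and carry out their silencing: the microprocessor genes Drosha and Dgcr8, the export receptor gene Xpo5, the dicing genes Dicer1 and Tarbp2, the Argonaute genes Ago1, Ago2 and Ago3, and the GW182 genes Tnrc6a and Tnrc6b. They were chosen by name, and a gene counted as measured if a transcript cluster of the array carried its symbol and no other. Of the 10 genes, 8 had such a cluster, 1 each, among 22180 genes with a cluster of their own. All 8 were among the 14611 genes that lay above the level required for testing. The clusters that list Dgcr8 and Tnrc6b also list a microRNA gene, Mir1306 and Mir5113, so no value is given for either gene.

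The cells were of the RAW 264.7 line, mouse macrophage-like cells that grow attached and carry a transforming virus (Abelson). They were collected 48 h after transfection with pre-miR-223, anti-miR-223 or an irrelevant scramble oligonucleotide. Pre-miR-223 is meant to add miR-223, and anti-miR-223 to bind and block it. All 3 groups were grown and transfected alike. Each group had 4 arrays, titled as biological replicates of 1 cell line, and every value below is a log2 array signal. An array reports the RNA of these genes and neither their proteins nor the amount of any mature microRNA. Whether the oligonucleotides changed miR-223 in these cells was therefore not measured on the arrays.

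A primary microRNA transcript is cut in the nucleus by Drosha with its RNA-binding partner Dgcr8, and the hairpin leaves through Exportin-5, the product of Xpo5. Dicer1 cuts the hairpin to a duplex with the help of Tarbp2, and 1 strand is loaded into an Argonaute protein. Tnrc6 proteins bind the Argonaute and recruit the complexes that remove the poly(A) tail and the cap of the target mRNA. Oligonucleotides that imitate or block a microRNA act through the Argonaute proteins of the cell, and miR-223 is a microRNA known for its abundance in myeloid cells.

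Mature sequences from RefSeq (GRCm38.p6) are given 5′ to 3′ with the seed, bases 2 to 8, in capitals. The first pair are the arms of miR-223, at chrX:96242884-96242905 and chrX:96242842-96242864 on the plus strand, shown because they are the microRNA the oligonucleotides address. The others are the microRNAs that share a cluster with Dgcr8 (chr16:18284248-18284268 and chr16:18284288-18284310, minus strand) and with Tnrc6b (chr15:80940049-80940071, plus strand), which is why those genes have no value of their own. The 5 seeds all differ, and among 1738 mature mouse microRNAs only miR-223-3p itself has the seed GUCAGUU.
mmu-miR-223-3p: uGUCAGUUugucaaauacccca
mmu-miR-223-5p: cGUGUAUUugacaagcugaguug
mmu-miR-1306-3p: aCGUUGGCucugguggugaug
mmu-miR-1306-5p: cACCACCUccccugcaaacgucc
mmu-miR-5113: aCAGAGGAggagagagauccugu

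One array stood apart before any comparison was made. Anti-miR-223 replicate 4 had a median correlation of 0.967 with the other arrays, across genes, where the other 11 had 0.988 to 0.992. It lay over 2-fold from the mean of the other 11 arrays for 817 genes (5.59%), and 73 of its 74 small nucleolar RNA genes were below that mean. Differences that involve the anti-miR-223 group are therefore given with and without it (an 11-array fit) where a gene is named. Macrophage markers were high in all groups: the 8 genes Cd68, Adgre1, Csf1r, Lyz2, Ptprc, Itgam, Fcgr1 and Spi1 had 12-array means from 5.96 to 11.19. The 16 measured markers of fibroblasts, epithelium and lymphocytes had means between 1.67 and 3.52. Epcam, Cdh1, Dcn, Pdgfra, Cd3e and Ms4a1 had 2.00, 2.08, 1.67, 1.82, 1.97 and 1.74, and of these only Cdh1 was above the lowest level tested (2.01). The fibroblast, epithelium and lymphocyte lists had 4 of 6, 3 of 5 and 1 of 5 measured genes above it. Besides Cdh1 these were Krt8 (3.52), Col1a1 (2.53), Krt18 (2.34), Col1a2 (2.28), Cd3d (2.12), Pdgfrb (2.08) and Col3a1 (2.06).

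Drosha, the nuclease of the microprocessor, had 5.13, 5.48, 5.30 and 5.24 with pre-miR-223, 5.34, 5.09, 5.53 and 5.66 with anti-miR-223, and 5.45, 5.58, 5.31 and 5.41 with scramble, in replicates 1 to 4. The highest and the lowest Drosha signal were both on anti-miR-223 arrays, and each group overlapped the others. Drosha differed by -0.15 (95% CI -0.42 to 0.13) for pre-miR-223 minus scramble, the smallest p of the members in that comparison (limma, unadjusted p = 0.266, adjusted p = 0.933). For anti-miR-223 minus scramble it differed by -0.03 (-0.31 to 0.24), and the 11-array fit gave -0.12. In such bulk RNA, fewer cells with a transcript and less of it per cell cannot be told apart.

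Xpo5, the carrier of hairpin precursors out of the nucleus, had 5.49, 5.74, 5.47 and 5.61 with pre-miR-223, 5.48, 5.37, 5.81 and 6.34 with anti-miR-223, and 5.59, 5.95, 5.55 and 5.68 with scramble. The anti-miR-223 group held both the lowest and the highest array, replicates 2 and 4. Its difference from scramble was 0.06 (95% CI -0.32 to 0.45) with anti-miR-223 replicate 4 and -0.13 (-0.41 to 0.15) without it, and the sign depended on that array. For pre-miR-223 minus scramble Xpo5 differed by -0.11 (-0.50 to 0.27).

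Dicer1, which cuts the hairpin to a duplex, had 5.09, 5.05, 4.88 and 5.18 with pre-miR-223, 4.76, 4.75, 5.07 and 5.65 with anti-miR-223, and 4.99, 5.28, 5.03 and 5.19 with scramble. Again the 2 lowest arrays and the highest one were anti-miR-223. The mean was 5.06 ± 0.42 with anti-miR-223 (SD, n = 4), against 5.12 ± 0.14 with scramble, a difference of -0.07 (95% CI -0.43 to 0.30). Without replicate 4, the anti-miR-223 mean was 4.86 ± 0.18 (SD, n = 3) and the difference was -0.26 (-0.52 to -0.01). That value had an unadjusted p of 0.0423 in limma and an adjusted p of 0.712, so it did not pass. In the same 11-array fit 6.69% of all tested genes had an unadjusted p under 0.05, and Dicer1 was 1 of 8 machinery genes that did.

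Tarbp2, the double-stranded RNA-binding partner of Dicer, was the member closest to the lowest level tested. It had 3.16, 3.36, 3.28 and 2.55 with pre-miR-223, 3.09, 2.68, 3.32 and 3.17 with anti-miR-223, and 3.05, 3.34, 3.35 and 3.05 with scramble. One array of each oligonucleotide group, pre-miR-223 replicate 4 and anti-miR-223 replicate 2, lay below the rest. For pre-miR-223 minus scramble the interval of Tarbp2 ran from -0.49 to 0.27 around -0.11, which became 0.07 without pre-miR-223 replicate 4. For anti-miR-223 minus scramble it was -0.13 (-0.51 to 0.25). The 11-array fit gave -0.17, and leaving out anti-miR-223 replicate 2 gave -0.00242.

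**Figure D1:**
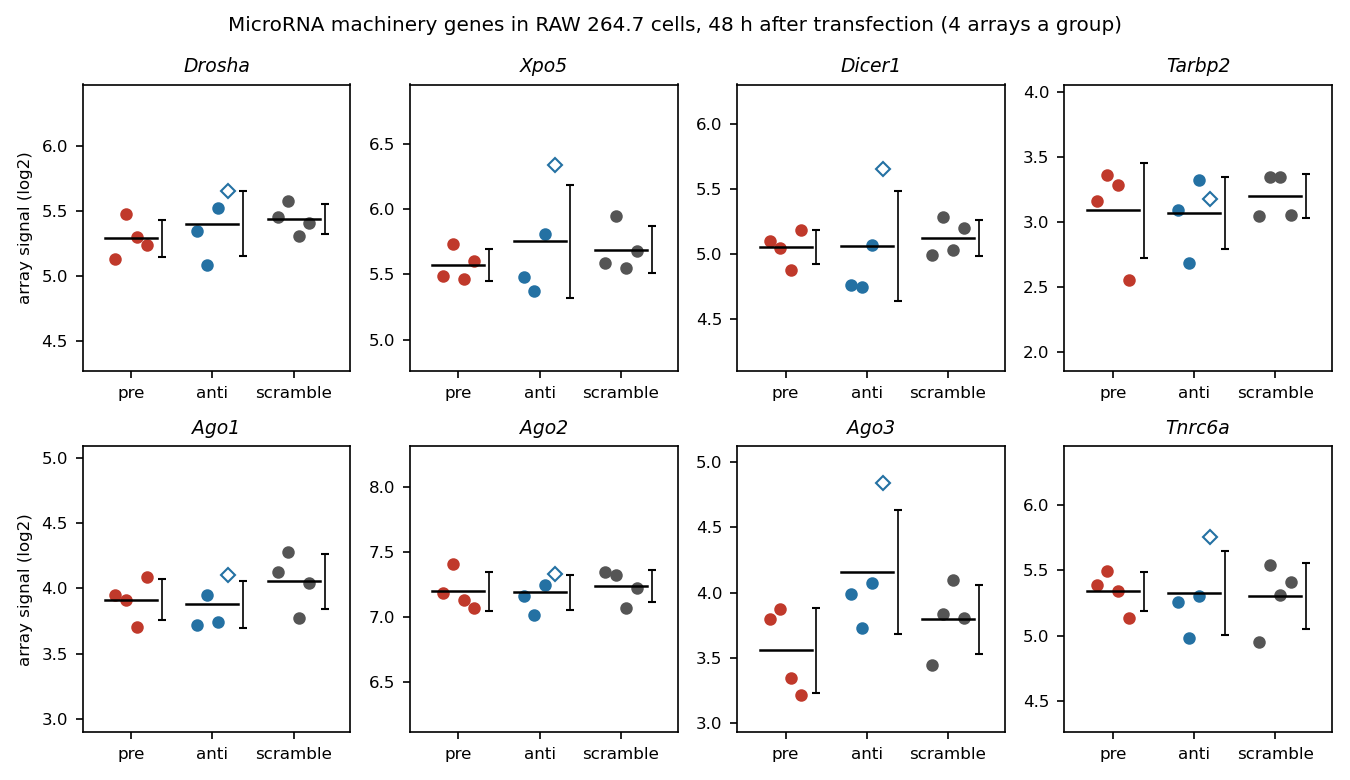
Array signal (log2, vertical axis, each panel spanning the same width of 2.2 log2 units) of the 8 measured machinery genes in the pre-miR-223, anti-miR-223 and scramble groups. Points are arrays in replicate order, horizontal bars are means, whiskers beside them are SD (n = 4), and the open diamond is anti-miR-223 replicate 4. Every pair of groups overlaps in every panel, and the diamond is the highest point for Drosha, Xpo5, Dicer1, Ago3 and Tnrc6a.

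Among the Argonautes, Ago2, the family member known for cutting fully matched targets, varied least. Its signal was 7.19, 7.41, 7.13 and 7.07 with pre-miR-223, 7.16, 7.02, 7.25 and 7.34 with anti-miR-223, and 7.34, 7.32, 7.07 and 7.23 with scramble. All 12 arrays lay within 0.39 of each other and the groups ran through one another. The within-group SD of Ago2 was 0.14, larger than that of 19.1% of tested genes. Its means were 7.20 ± 0.15 with pre-miR-223, 7.19 ± 0.13 with anti-miR-223 and 7.24 ± 0.12 with scramble (SD, n = 4 each). The difference from scramble was -0.04 (95% CI -0.28 to 0.19) for pre-miR-223 and -0.05 (-0.29 to 0.19) for anti-miR-223, or -0.10 without anti-miR-223 replicate 4.

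Ago1, a paralogue that silences without cutting, had 3.95, 3.91, 3.71 and 4.09 with pre-miR-223, 3.72, 3.95, 3.75 and 4.10 with anti-miR-223, and 4.13, 4.28, 3.77 and 4.04 with scramble. Scramble replicate 2 was the highest array, while scramble replicate 3 lay among the lowest. Ago1 differed from scramble by -0.14 (95% CI -0.42 to 0.14) with pre-miR-223 and by -0.18 (-0.46 to 0.10) with anti-miR-223, or -0.25 (-0.53 to 0.02) without anti-miR-223 replicate 4.

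Ago3 showed the widest spread of the members. It had 3.80, 3.87, 3.34 and 3.21 with pre-miR-223, 3.99, 3.73, 4.07 and 4.84 with anti-miR-223, and 3.45, 3.83, 4.10 and 3.81 with scramble. Pre-miR-223 replicates 3 and 4 were the lowest arrays and anti-miR-223 replicate 4 was the highest by a wide gap, but pre-miR-223 replicates 1 and 2 lay above anti-miR-223 replicate 2. The means were 3.56 ± 0.33 with pre-miR-223, 4.16 ± 0.48 with anti-miR-223 and 3.80 ± 0.27 with scramble (SD, n = 4 each). Its within-group SD of 0.37 exceeded that of 92.6% of tested genes, and 91.1% without anti-miR-223 replicate 4 (SD 0.27).

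The 2 miR-223 oligonucleotides are meant to act in opposite ways. Ago3 differed by -0.60 (95% CI -1.08 to -0.12) for pre-miR-223 minus anti-miR-223, or 0.658-fold. Its unadjusted p in limma was 0.0174 and its adjusted p over all genes was 0.946, so it did not pass. Ago3 was 1 of 8 members with an unadjusted p under 0.05 here, against 3.61% of all tested genes. Without anti-miR-223 replicate 4 the difference was -0.38 (-0.75 to -0.01), with a limma unadjusted p of 0.0468, still 1 of 8 members against 4.89% of all genes, and an adjusted p of 0.964. The unadjusted p was 0.0508 without pre-miR-223 replicate 3 and to 0.0608 without pre-miR-223 replicate 4. Over 22 alternative fits the difference kept its sign, between -0.75 and -0.38, and its adjusted p was never under 0.557. Against scramble, Ago3 differed by -0.24 (-0.72 to 0.24) with pre-miR-223 and by 0.36 (-0.12 to 0.84) with anti-miR-223. Leaving out anti-miR-223 replicate 4 made that second value 0.14 (-0.23 to 0.51), and leaving out anti-miR-223 replicate 2 made it 0.51 with an unadjusted p of 0.0433.

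Ago1 and Ago3 are neighbouring genes on chromosome 4, in the order Ago3, Ago1, Ago4, and are read from the same strand. Across the 12 arrays the signals of Ago1 and Ago3 had a Pearson r of -0.02, and -0.34 over the 11 arrays without anti-miR-223 replicate 4. Drosha and Xpo5, on different chromosomes, had 0.85 and 0.86. Over 11 arrays these 2 pairs were the lowest and the highest of the 28 member pairs, whose median was 0.45 (0.54 over 12 arrays). These correlations describe arrays taken to be normalised together, and carry no test. The regions from 250 bases before to 50 bases after their start sites (RefSeq, GRCm38.p6, minus strand, read 5′ to 3′ along the gene) are shown with each CG pair in capitals, because they belong to neighbours whose signals did not run together. The CG pair reads the same on both strands and was searched without overlap. The Ago3 window (chr4:126429493-126429792) holds 37 such pairs and the Ago1 window (chr4:126468534-126468833, 1 of 2 listed starts) holds 38. As many or more are found in 5.58% and 4.95% of the 32851 promoter windows of this length, whose median is 7. The other listed Ago1 start (chr4:126468582-126468881), not shown, has 31 pairs, and 10.6% of windows have as many or more.
Ago3: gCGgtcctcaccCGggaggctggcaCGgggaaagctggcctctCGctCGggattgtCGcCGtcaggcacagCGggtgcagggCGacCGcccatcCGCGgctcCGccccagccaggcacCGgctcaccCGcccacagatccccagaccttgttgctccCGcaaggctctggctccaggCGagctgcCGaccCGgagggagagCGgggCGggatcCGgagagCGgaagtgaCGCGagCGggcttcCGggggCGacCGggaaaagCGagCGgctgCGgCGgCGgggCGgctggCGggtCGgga
Ago1: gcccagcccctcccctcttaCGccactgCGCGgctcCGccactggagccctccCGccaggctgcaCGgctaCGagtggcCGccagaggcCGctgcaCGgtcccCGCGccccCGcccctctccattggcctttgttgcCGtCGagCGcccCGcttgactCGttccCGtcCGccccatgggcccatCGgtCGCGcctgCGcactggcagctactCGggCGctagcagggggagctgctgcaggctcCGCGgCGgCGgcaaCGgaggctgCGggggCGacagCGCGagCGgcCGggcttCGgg

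CG pairs were also frequent in the start windows of Dicer1 (49), Dgcr8 (43), Xpo5 (40) and Drosha (37). Tarbp2 had 21 and Tnrc6a 11, and the 2 listed starts of Tnrc6b had 18 and 9. No window of Ago2 was used here. A count of CG pairs describes the letters of the window and says nothing of its activity in these cells.

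Tnrc6a, the GW182 scaffold that binds Argonaute and recruits the deadenylases, had 5.39, 5.50, 5.34 and 5.13 with pre-miR-223, 5.25, 4.98, 5.31 and 5.76 with anti-miR-223, and 4.95, 5.55, 5.31 and 5.41 with scramble. The lowest array was scramble replicate 1 and the highest was anti-miR-223 replicate 4. Tnrc6a was the member whose mean was higher than scramble with pre-miR-223, by 0.03 (95% CI -0.32 to 0.39), a sign that turned to -0.08 without scramble replicate 1. With anti-miR-223 it differed by 0.02 (-0.33 to 0.37), or -0.13 (-0.43 to 0.17) without replicate 4 of that group.

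**Figure D2:**
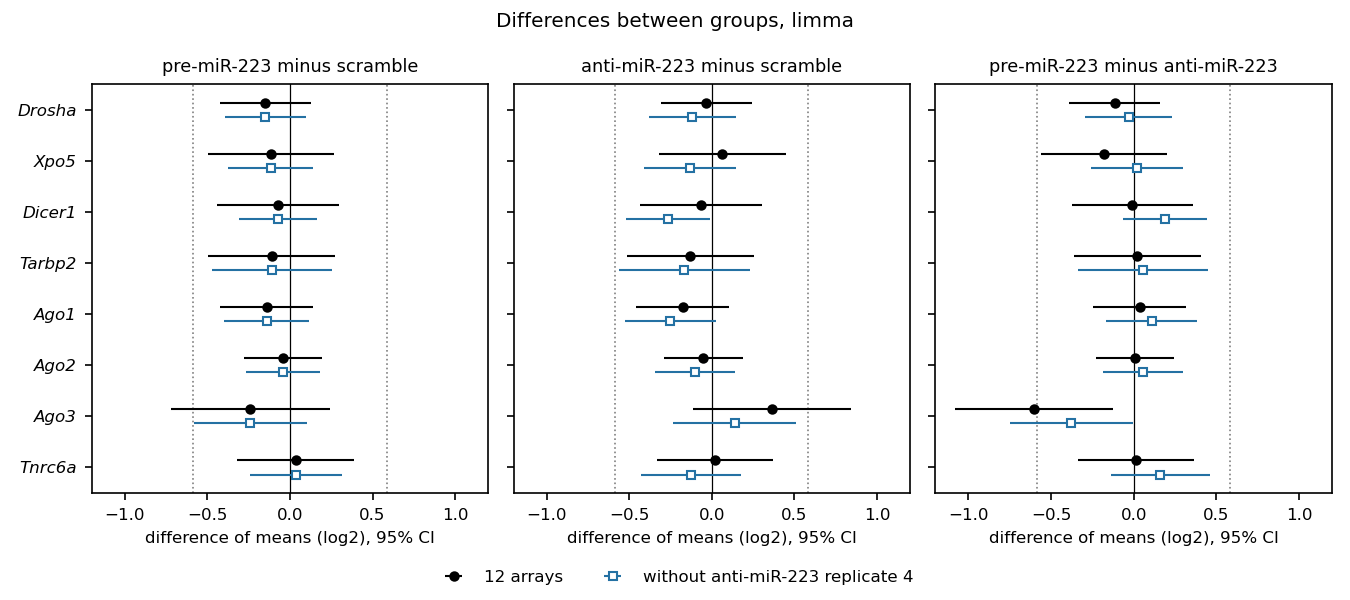
Difference of group means (log2, horizontal axis) with its 95% confidence interval from limma for the 8 machinery genes in the 3 comparisons, from all 12 arrays (filled circles) and without anti-miR-223 replicate 4 (open squares). Dotted lines mark a change of 1.5-fold. Intervals cross 0 except for Ago3 between pre-miR-223 and anti-miR-223, and for Dicer1 between anti-miR-223 and scramble without that array.

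In all, 0 of the 8 machinery genes passed the test in any of the 3 comparisons (limma, adjusted p under 0.05), and the background of calls over all 14611 tested genes was also 0% in each. With pre-miR-223 against scramble, 0 of 8 had an unadjusted p under 0.05, against 4.87% of all genes, and 0 of 8 had groups that did not overlap, against 2.98%. The 11-array fit also had 0 of 8, against 9.38%. The differences of 7 members were below 0, as were 65.2% of all genes. The member median was -0.11 beside a median of -0.05 over all tested genes, which include genes outside the members' range of levels. On pre-miR-223 replicates 1 to 4 the 7223 protein-coding genes of that range had median deviations of -0.07, 0.08, -0.10 and -0.15. Scramble replicates 1 to 4 had 0.01, 0.14, -0.004 and 0.01, all from the 12-array means. A difference between the groups was not fitted for that set. After a repeated quantile normalisation or cyclic loess, Dicer1 and Ago2 turned positive (0.040 and 0.054, then 0.038 and 0.069), and the median over all genes was then 0.00. The member median was -0.0221 and -0.0216 under these scalings, and -0.0450 without scramble replicate 2. Adjusted p values of the members in limma ran from 0.933 to 0.989, or from 0.648 to 0.955 in the 11-array fit.

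With anti-miR-223 against scramble, 0 of 8 had an unadjusted p under 0.05, where 2.01% of all genes did, and 0 of 8 were free of overlap, where 1.55% were. Of the members 5 were below 0 and 3 above (52.5% of all genes were below 0), with a median of -0.04 beside -0.01 over all genes. Without anti-miR-223 replicate 4, 7 were below 0 (63.6% of all genes), with a median of -0.13 beside -0.05. For pre-miR-223 minus anti-miR-223, 4 members were below 0, against 62.8% of all genes, and 0 of 8 were free of overlap, against 1.67%. The member median was 0.00 there, beside -0.04 over all genes, and without anti-miR-223 replicate 4 it was 0.06 with 2 members below 0 (52.2% of all genes). The comparisons against scramble share the scramble arrays, so their values stand side by side and are not independent.

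The intervals set a limit on the size of a change that these arrays could have missed. For pre-miR-223 minus scramble they lay inside 1.5-fold in either direction for 7 of 8 members (82.8% of all genes), and for anti-miR-223 minus scramble for 7 of 8 (88.1%). Ago3 was the exception in both. All 8 lay inside 2-fold in both comparisons, as did 98.5% and 98.9% of all genes. Between pre-miR-223 and anti-miR-223 the count was 7 of 8 at either size, again without Ago3 (82.9% and 97.9% of all genes). Without anti-miR-223 replicate 4, the counts inside 1.5-fold were 8, 8 and 7 of 8 in the 3 comparisons, against 90.9%, 89.1% and 91.8%. These limits concern array signal.

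Median deviations of the 8 genes from their 12-array means ran from -0.14 to 0.08 on the pre-miR-223 arrays, from -0.29 to 0.36 on the anti-miR-223 arrays and from -0.08 to 0.21 on the scramble arrays. On anti-miR-223 replicate 4 all 8 lay above their mean over the other 11 arrays, by 1.10 for Ago3, 0.73 for Xpo5, 0.63 for Dicer1, 0.48 for Tnrc6a, 0.31 for Drosha, 0.16 for Ago1, 0.14 for Ago2 and 0.06 for Tarbp2. On anti-miR-223 replicate 2 all 8 were below their 12-array mean, and Drosha, Xpo5, Dicer1 and Ago2 had their lowest signal there. Protein-coding genes of the members' range of levels also lay lower on replicate 2, with a median deviation of -0.12, beside -0.29 for the members. The share of all genes below their mean on replicate 2 was not counted. On replicate 4 the rise of Tarbp2 exceeded that of only 47.8% of tested genes, so most tested genes rose there too. For Ago2, Ago1 and Drosha this share was 55.1%, 57.5% and 68.2%. It was 78.6% for Tnrc6a, 86.0% for Dicer1, 89.7% for Xpo5 and 96.7% for Ago3. The median deviation on replicate 4 was 0.28 over the 7223 protein-coding genes of the members' range of levels, and 0.36 for the members. Small nucleolar RNAs, which guide ribosomal RNA modification, had a median of -1.41 on it, against -0.12 to 0.35 on the other 11 arrays, and the part of this array's RNA in the members' values was not tested.

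**Figure D3:**
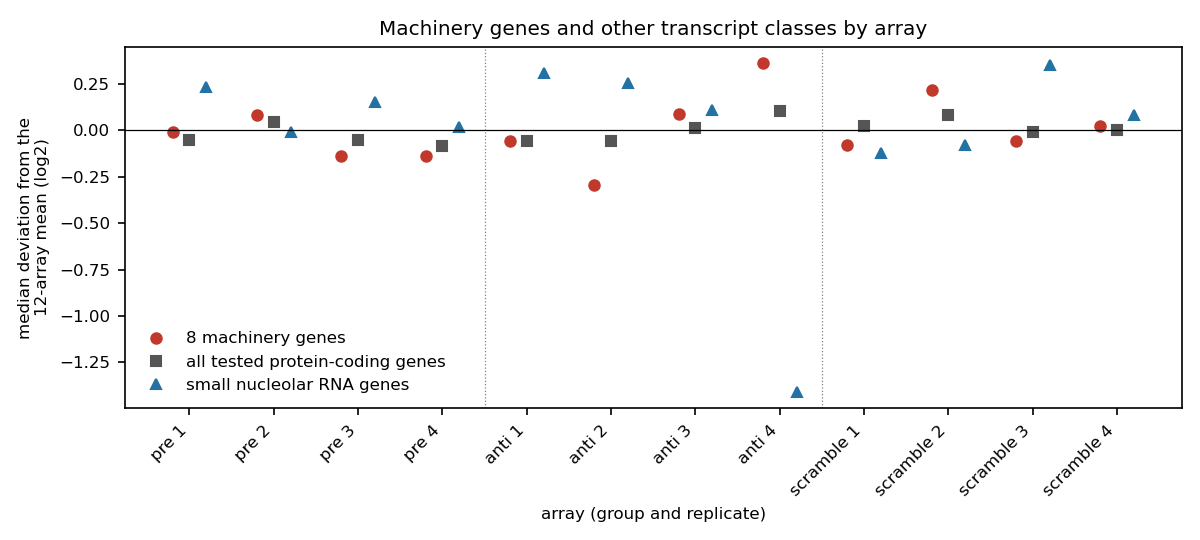
Median deviation from the 12-array mean (log2, vertical axis) on each array for the 8 machinery genes (circles), all tested protein-coding genes (squares) and 74 small nucleolar RNA genes (triangles). The machinery genes are highest on anti-miR-223 replicate 4 (0.36), where small nucleolar RNAs are at -1.41, and lowest on anti-miR-223 replicate 2 (-0.29).

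Among themselves, 26 of the 28 pairs of members had a Pearson r above 0 across the 12 arrays, with a median of 0.54, and 24 of 28 without anti-miR-223 replicate 4, with a median of 0.45. The highest was 0.90 for Xpo5 and Dicer1 over 12 arrays, which was 0.76 over 11. Over 12 arrays the lowest was -0.26 for Tarbp2 and Ago1. A median r of a single member with the 12964 other genes it was compared with lay between 0.17 and 0.34. These leave out small RNA, predicted and receptor genes as described below. The share of pairs above 0 among other genes of like level was not counted. The tested gene most like Xpo5 was Sccpdh (r = 0.991 over 12 arrays, 0.982 over 11). The most like Drosha was Fam120a (0.957 and 0.950), Dicer1 had Azin1 (0.967 and 0.930), Tarbp2 had Crls1 (0.868 and 0.868), and Ago1 had Rgs14 (0.848 and 0.838). Ago2 ran most like Cnnm4 (0.944 and 0.939), Ago3 like the mitochondrial cytochrome b gene, listed as CYTB (0.973 and 0.941), and Tnrc6a like Cops2 (0.959 and 0.943). Each is the highest of 12964 values and is given as a description.

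Other genes of the pathway were read from 5 lists holding 60 genes, of which 53 were tested. The genes Hnrnpa1, Mettl3, Hsp90ab1, Gemin4, Cnot1 and Cnot3 had no cluster of their own, and Lin28b lay below the level required. In each comparison 0 of the 53 passed the test, as did 0% of all genes. An unadjusted p under 0.05 was found for 0 of the 53, against 4.87% of all genes with pre-miR-223 against scramble, 2.01% with anti-miR-223 against scramble and 3.61% between pre-miR-223 and anti-miR-223. Groups free of overlap were found for 0 of the 53, against 2.98%, 1.55% and 1.67% of all genes in the same order. Without anti-miR-223 replicate 4, an unadjusted p under 0.05 was found for 2, 3 and 2 of the 53, against 9.38%, 6.69% and 4.89% of all genes, and 0 passed. With pre-miR-223 against scramble 36 of 53 were below 0, with a median of -0.08, where 65.2% of all genes were below 0 with a median of -0.05. With anti-miR-223 against scramble 34 were below 0, with a median of -0.02, beside 52.5% and -0.01 over all genes. The fit that left out anti-miR-223 replicate 4 had 44 below 0 and a median of -0.08. All genes then had 63.6% below 0 and a median of -0.05, so most tested genes were lower there too. Between pre-miR-223 and anti-miR-223, 33 were below 0 with a median of -0.04 (all genes 62.8% and -0.04). Without that array these were 21 and 0.04 (all genes 52.2% and -0.01).

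Of the microprocessor cofactors 4 of 8 were below 0 with pre-miR-223 against scramble (65.2% of all genes). All 8 were below 0 with anti-miR-223 against scramble (52.5% of all genes), by a median of -0.05, beside -0.01 over all genes. Without anti-miR-223 replicate 4 all 8 were again below 0, by a median of -0.10 (all genes 63.6% and -0.05). In limma 0 of the 8 had an unadjusted p under 0.05, with or without that array. Khsrp, a KH-domain protein that binds the loops of some precursors, differed by -0.18 (95% CI -0.44 to 0.08) for pre-miR-223 minus scramble. The helicase gene Ddx5, a Drosha partner, differed by 0.12 (-0.09 to 0.33) in that comparison and by 0.15 (-0.05 to 0.36) for pre-miR-223 minus anti-miR-223, or 0.13 without anti-miR-223 replicate 4. Adar, which edits adenosine in double-stranded RNA, differed by -0.11 (-0.30 to 0.07) for anti-miR-223 minus scramble, and Srrt, a cap-complex partner of Drosha, by -0.11 (-0.31 to 0.10). Leaving out anti-miR-223 replicate 4 gave -0.14 for Adar and -0.08 for Srrt. Lin28a, a let-7 precursor-binding protein, differed by 0.14 (-0.11 to 0.40) for pre-miR-223 minus anti-miR-223, at 2.11 and 1.96, close to the lowest level tested, or 0.15 without anti-miR-223 replicate 4.

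In the export and dicing list Xpo1, the export receptor for proteins and some RNAs, differed by 0.12 (95% CI -0.09 to 0.33) for pre-miR-223 minus scramble and by 0.18 (-0.03 to 0.39) for pre-miR-223 minus anti-miR-223. The second value was 0.23 (0.01 to 0.44) without anti-miR-223 replicate 4, with an unadjusted p of 0.0382 and an adjusted p of 0.964 in limma. Ran, the GTPase that Exportin-5 needs, had 6.09, 6.16, 6.00 and 5.72 with pre-miR-223, 6.12, 6.16, 6.20 and 5.46 with anti-miR-223, and 6.21, 6.18, 6.10 and 6.16 with scramble. For anti-miR-223 minus scramble the difference was -0.17 (-0.51 to 0.16), and 0.000425 without the low replicate 4, on which Xpo5 had its highest signal. For pre-miR-223 minus scramble Ran differed by -0.17 (-0.50 to 0.16). Rcc1, which loads Ran with GTP, differed by -0.07 (-0.27 to 0.14) for anti-miR-223 minus scramble and by 0.15 (-0.05 to 0.35) for pre-miR-223 minus anti-miR-223, or -0.10 and 0.18 without anti-miR-223 replicate 4.

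Among the partners of Argonaute, Mov10, an RNA helicase, had 4.44, 4.81, 4.62 and 4.52 with pre-miR-223, 4.85, 4.90, 4.95 and 4.71 with anti-miR-223, and 5.13, 4.86, 4.78 and 4.62 with scramble. The pre-miR-223 arrays were mostly the lower ones but overlapped both other groups. It differed by -0.25 (95% CI -0.51 to 0.01, unadjusted p = 0.0581, adjusted p = 0.921 in limma) for pre-miR-223 minus scramble and by -0.26 (-0.52 to 0.00, unadjusted p = 0.0523, adjusted p = 0.946) for pre-miR-223 minus anti-miR-223. The 11-array fit gave -0.25 and -0.30, with unadjusted p of 0.0469 and 0.0282 and adjusted p of 0.531 and 0.964. Limd1, a LIM-domain partner of Argonaute and GW182, differed by -0.32 (-0.75 to 0.10) for pre-miR-223 minus anti-miR-223, or -0.15 without anti-miR-223 replicate 4. The chaperone gene Hspa8 differed by -0.13 (-0.36 to 0.10) for pre-miR-223 minus scramble. Ipo8, an import receptor that binds Argonaute, differed by 0.14 (-0.21 to 0.48) for anti-miR-223 minus scramble, or -0.05 without replicate 4.

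Ago4, the remaining Argonaute gene and a neighbour of Ago1, had 2.13, 2.90, 2.02 and 2.71 with pre-miR-223, 2.29, 2.34, 2.38 and 3.44 with anti-miR-223, and 2.27, 2.40, 2.38 and 2.32 with scramble. Like Ago3 it was highest on anti-miR-223 replicate 4, while its other anti-miR-223 values lay within the scramble range. Its difference from scramble was 0.27 (95% CI -0.25 to 0.79) with that array and -0.01 (-0.37 to 0.36) without it.

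The silencing effectors shorten the poly(A) tail, remove the cap and degrade the mRNA. With pre-miR-223 against scramble their median was -0.14, with 18 of 22 below 0. All tested genes had a median of -0.05 and 65.2% below 0, and no background matched to the levels of this list was computed. With anti-miR-223 the median was 0.00 and 12 of 22 were below 0 (all genes -0.01 and 52.5%), or -0.13 and 19 of 22 without replicate 4 (all genes -0.05 and 63.6%). Lsm1, a subunit of the ring that promotes decapping, differed by -0.36 (95% CI -0.87 to 0.15) for pre-miR-223 minus scramble, and Cnot9, a subunit of the CCR4-NOT deadenylase, by -0.18 (-0.44 to 0.07). Cnot6l and Cnot10, other CCR4-NOT subunits, differed by 0.14 (-0.11 to 0.39) and -0.17 (-0.48 to 0.13) for anti-miR-223 minus scramble, or 0.0447 and -0.21 without anti-miR-223 replicate 4. Patl1, a decapping cofactor, differed by -0.27 (-0.60 to 0.07) and Cnot6 by 0.16 (-0.06 to 0.38) for pre-miR-223 minus anti-miR-223, or -0.12 and 0.21 without anti-miR-223 replicate 4.

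Genes of microRNA tailing and decay had a median of -0.08 with pre-miR-223 against scramble, with 5 of 7 below 0, beside the same -0.05 and 65.2% over all genes. Dis3l2, an exonuclease that degrades uridylated precursors, had 4.57, 4.83, 4.28 and 4.60 with pre-miR-223, 4.79, 4.64, 4.60 and 5.46 with anti-miR-223, and 4.79, 5.16, 4.76 and 4.89 with scramble. Of the 4 pre-miR-223 arrays 3 lay below all scramble arrays, and replicate 2 did not. It differed by -0.33 (95% CI -0.72 to 0.06, unadjusted p = 0.0897) for pre-miR-223 minus scramble and by -0.30 (-0.69 to 0.08) for pre-miR-223 minus anti-miR-223, which was -0.11 without anti-miR-223 replicate 4. For pre-miR-223 minus scramble the 11-array fit gave an unadjusted p of 0.0176 and an adjusted p of 0.521 in limma. Tent2, a poly(A) polymerase that extends mature microRNAs, differed by -0.20 (-0.51 to 0.11) with pre-miR-223 and by -0.18 (-0.49 to 0.12) with anti-miR-223, both against scramble, and the second was also -0.18 without anti-miR-223 replicate 4. Pnpt1, an exonuclease, differed by -0.06 (-0.27 to 0.15) for anti-miR-223 minus scramble, or -0.08 without anti-miR-223 replicate 4. The uridylyltransferase gene Tut7 differed by -0.11 (-0.41 to 0.19) for pre-miR-223 minus anti-miR-223, and the sign turned to 0.0419 without anti-miR-223 replicate 4.

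**Figure D4:**
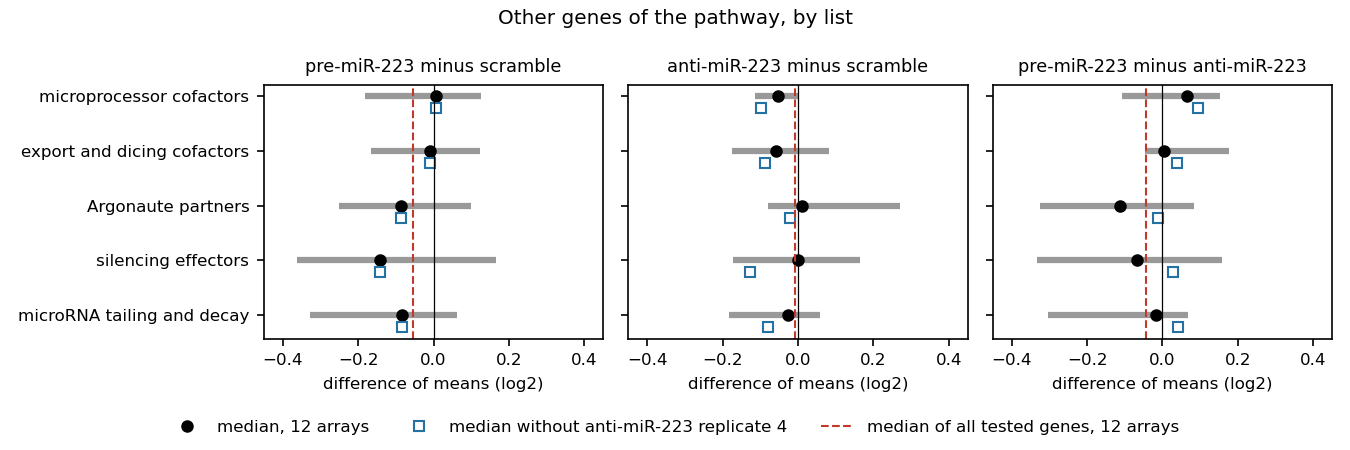
Difference of group means (log2, horizontal axis) for the tested genes of 5 lists of other pathway genes in the 3 comparisons. Grey bars span the lowest to the highest gene of a list, circles and squares are list medians with and without anti-miR-223 replicate 4, and the dashed line is the median of all tested genes. The silencing effectors have the lowest median for pre-miR-223 minus scramble (-0.14), and their median for anti-miR-223 minus scramble is 0.00, or -0.13 without that array.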

How the data were processed

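The authors deposited 1 table of log2 signals for 41345 transcript clusters on 12 arrays, with array medians between 2.21 and 2.31. Per the submitters' processing notes, Affymetrix Expression Console, RMA and Partek were used, with no version or role given. No source gives the logarithm base, and 2 was assumed, as is usual for RMA. No genome build is given in the sources used here, so RefSeq coordinates accompany sequences only. The values were taken to be equalised between arrays, as is usual for RMA, though no source says so. A change in total RNA per cell can then not be seen.

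Of all clusters, 25335 were annotated, 23521 of them with a single symbol and 1814 with several, and the other 16010 were unnamed. For each of 22180 genes the cluster with the highest mean was used, and 14611 genes with a mean above the 40th percentile (2.01) were tested, of which 14516 matched RefSeq by identifier for their gene type. Groups were compared in limma 3.58.1 (R 4.3.3), lmFit and eBayes, 1 model for 12 arrays with 9 residual degrees of freedom and no covariates, with Benjamini-Hochberg adjustment over all tested genes, 2-sided. The procedure was tested on simulated data, whose noise was drawn independently for each gene and array. Those data hold no outlying array, so that test does not cover shifts shared by many genes of an array. Precision is limited by 4 arrays a group, and p-values measure the spread between these arrays. No 2 arrays were duplicates (highest correlation 0.995).

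The members and lists were chosen with earlier results of these data known. Named were all members, the 2 genes with the smallest p of each list and comparison, and the gene most like each member leaving out small RNA, predicted, olfactory and vomeronasal receptor genes. Alternatives covered scaling, level filter, moderation, array weights, groups fitted, replicate block, cluster choice and each array left out.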

Additional observations from a re-analysis of the deposited data

Results flagged for a closer look

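No machinery gene had an array standing clear of the other 3 of its group by Dixon's test. Among the 23 other pathway genes named, 7 of 69 groups of 4 arrays did (10.1%). The nominal rate of the test, about 5%, is for independent groups and is no background here. These genes were named for their small p in the same data, and their groups share the same arrays. The share over all tested genes was not counted, so neither result can be called more or less than usual. The anti-miR-223 group held all 7 of these cases. On its replicate 4, Ago4 was at 3.44, against 2.38 for the nearest other array of that group, Ipo8 at 6.85 against 6.20, Khsrp at 7.50 against 7.14 and Ran at 5.46 against 6.12. On replicate 2, Ddx5 was at 9.22, against 9.04 for the nearest. On replicate 3, Srrt was at 7.71, against 7.50, and on replicate 1, Cnot10 was at 4.61, against 4.96.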

How the results depend on the processing

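No machinery gene and no other gene was called in any of 22 alternatives per comparison, and the member medians moved by less than the SD between replicates (0.19). Their sign was not stable: anti-miR-223 minus scramble ranged from -0.13 without anti-miR-223 replicate 4 to 0.0550 without replicate 2, and pre-miR-223 minus anti-miR-223 from -0.11 without anti-miR-223 replicate 2 to 0.0723 after quantile normalisation. Of 528 single differences, 39 turned. With pre-miR-223 minus scramble, Dicer1 and Ago2 became 0.0404 and 0.0539 after repeated quantile normalisation and 0.0381 and 0.0693 with cyclic loess. With array weights, Xpo5 and Tnrc6a became -0.0464 and -0.104 for anti-miR-223 minus scramble. For pre-miR-223 minus anti-miR-223, Dicer1 became 0.0900 with quantile normalisation, 0.0853 with cyclic loess and 0.12 with array weights, and Ago2 became -0.00315 after median-centring the arrays. The cause was not tested. Leaving out single arrays, pre-miR-223 minus scramble ranged from -0.0838 to 0.114 for Tnrc6a, -0.200 to 0.0694 for Tarbp2 and -0.11 to 0.000643 for Ago2. Anti-miR-223 minus scramble ranged from -0.118 to 0.0721 for Drosha, -0.13 to 0.19 for Xpo5, -0.264 to 0.0379 for Dicer1, -0.108 to 0.00609 for Ago2 and -0.13 to 0.13 for Tnrc6a. Pre-miR-223 minus anti-miR-223 ranged from -0.305 to 0.0180 for Xpo5, -0.11 to 0.19 for Dicer1, -0.11 to 0.20 for Tarbp2, -0.0223 to 0.110 for Ago1, -0.0621 to 0.0571 for Ago2 and -0.10 to 0.16 for Tnrc6a.

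Same-numbered arrays did not deviate together (4 of 12 pairs had r above 0.1, range -0.50 to 0.39), so the numbers were not taken as pairs. The replicate block gave 0 calls in each comparison and an unadjusted p of 0.0345 for Ago3 between pre-miR-223 and anti-miR-223.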
